A study of Homo sapiens with 10 samples.

Results

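The members described here are the genes of the 26S proteasome and of the chaperonin CCT, with the proteasome's activators and assembly chaperones, as measured in HCT116 cells, an established human colon carcinoma line. A gene was taken when its symbol begins with PSMA, PSMB, PSMC, PSMD, PSME or PSMG, or is TCP1 or one of the CCT family. This gave 37 genes of the 6914 named genes in the expression table, and all 37 were among the 6782 genes tested. They were 25 of the 31 listed core proteasome subunits, all 4 PSME activator genes, 2 of the 4 PSMG assembly chaperones and 5 of the 8 CCT subunits. The core subunits split into 9 of 14 for the 20S particle (4 of 7 α and 5 of 7 β subunits) and 16 of 17 for the 19S particle (5 of 6 ATPases and all 11 listed non-ATPases). TCP1, CCT5 and CCT6A were not analysed in footprints and mRNA, and neither were the immunoproteasome subunits PSMB8, PSMB9 and PSMB10. The remaining gene, PSMC3IP, matches by symbol only: it encodes a recombination protein that binds a proteasome ATPase and is not itself a subunit, so it is given apart.

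The study knocked down YTHDF1, a cytoplasmic reader of N6-methyladenosine (m6A) in mRNA, and asked which transcripts depend on it for translation. Ribosome profiling and mRNA-seq each had 2 knockdown libraries and 1 control library. RNA immunoprecipitation (RIP) with a YTHDF1 antibody and its input had 1 library each and m6A-seq had 2 replicates, all from control cells, for 10 samples in all. Cells carried either a hairpin against YTHDF1 or, per the file headers, one against GFP, and were given cycloheximide at 100 ug/ml for 3 min. Knockdown 1 and knockdown 2 are the samples titled shY1-1 and shY1-2. Their genotype field reads shY1 for both, so the labels do not settle whether they are different hairpins or repeats of 1. Nothing in the labels says that the libraries came from separate cultures, so p-values measure the spread between these libraries, which may be technical.

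The proteasome degrades proteins tagged with ubiquitin. Its 20S core is a barrel of α rings, which gate the entrance, and β rings, which hold the proteolytic sites. The 19S cap recognises ubiquitin chains, removes them, and uses a ring of ATPases to unfold substrates and feed them into the barrel. Alternative activators made of PSME proteins can take the place of the cap, and PSMG proteins help assemble the core. CCT is a double ring of related subunits that folds actin, tubulin and other proteins inside a closed chamber. Because each subunit of these rings is needed in a fixed ratio, the evenness of their synthesis is a natural property to measure. Proteasome genes are known to be induced together by the transcription factor NFE2L1, which acts at antioxidant response elements in their promoters.

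Promoters of members described below are shown so that the elements of this shared regulation can be read beside the footprint values. They are the 250 bases before the RefSeq transcription start in GRCh38.p14, 5′ to 3′ on the gene's strand: PSMC6 at chr14:52706950-52707199 on the plus strand, PSMD3 at chr17:39980557-39980806 on the plus strand, PSMA5 at chr1:109426449-109426698 on the minus strand and PSMB3 at chr17:38752491-38752740 on the plus strand. PSMC6 and PSMD3 belong to the 19S particle and were lower in footprints in both knockdown libraries, while PSMA5 and PSMB3 belong to the 20S particle and were higher in both. Capitals mark exact matches, on either strand, to TGACNNNGC (the core of the antioxidant response element), CCAAT (the CCAAT box), CGGAAG (the core of ETS factor sites) or GAANNTTC (the core of the heat shock element), and no marked matches overlap.
PSMC6: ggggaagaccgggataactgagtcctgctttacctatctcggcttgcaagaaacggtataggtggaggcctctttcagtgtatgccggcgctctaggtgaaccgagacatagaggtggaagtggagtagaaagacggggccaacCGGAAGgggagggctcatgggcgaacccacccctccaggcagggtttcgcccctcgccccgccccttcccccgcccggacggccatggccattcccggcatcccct
PSMD3: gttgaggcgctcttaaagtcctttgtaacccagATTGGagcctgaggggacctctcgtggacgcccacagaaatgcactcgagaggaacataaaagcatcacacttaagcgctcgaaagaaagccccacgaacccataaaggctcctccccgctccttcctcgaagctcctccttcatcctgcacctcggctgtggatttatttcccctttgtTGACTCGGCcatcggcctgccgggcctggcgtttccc
PSMA5: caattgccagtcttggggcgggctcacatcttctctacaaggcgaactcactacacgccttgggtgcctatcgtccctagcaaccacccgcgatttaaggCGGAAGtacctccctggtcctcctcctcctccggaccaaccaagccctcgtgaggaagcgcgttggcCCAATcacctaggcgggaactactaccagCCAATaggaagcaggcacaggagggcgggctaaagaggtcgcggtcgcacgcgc
PSMB3: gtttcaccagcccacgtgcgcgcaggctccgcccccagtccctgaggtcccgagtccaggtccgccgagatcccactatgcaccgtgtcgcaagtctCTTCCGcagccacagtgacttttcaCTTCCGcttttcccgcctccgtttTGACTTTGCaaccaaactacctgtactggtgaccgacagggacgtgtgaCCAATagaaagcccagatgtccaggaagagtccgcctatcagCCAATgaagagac

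The antioxidant response element core was found in the PSMD3 and PSMB3 promoters and not in these windows of PSMC6 and PSMA5. Over all 34 members that matched a RefSeq promoter, with 43 promoters between them, 27.9% of promoters held TGACNNNGC. The share was 11.9% of the 8042 promoters of tested genes and 10.9% of all 35116 RefSeq promoters of the same length. The genes holding it were CCT4, PSMA4, PSMB3, PSMC5, PSMD12, PSMD3, PSME1, PSME2, PSME4, PSMG1 and PSMG2. CCAAT stood in 44.2% of the members' promoters, against 33.1% of those of tested genes. CGGAAG stood in 46.5% of them, against 26.6%, and GAANNTTC in 6.98%, against 4.05%. In the 19S particle 3 of 15 genes held the antioxidant response element core, and in the 20S particle 2 of 7 did. PSMA7, PSMB6 and PSMD4 were not among the matched genes.

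YTHDF1 itself was lower in every knockdown library. Its mRNA signal was 8.62 and 7.81 in knockdown 1 and 2, against 27.4 in the control, and its footprint signal was 16.96 and 19.9 in the knockdown libraries, against 61.4 in the control. The log2 change of its mRNA was -1.62 (SE 0.40, unadjusted p = 0.00549 and adjusted p = 1.00 in limma). Across tested genes the median log2 change in footprints was -0.19 in knockdown 1 and -0.34 in knockdown 2. In mRNA it was -0.04 and 0.02. Footprint changes of members are therefore set beside these medians. Among named genes 0 had a signal of 0 in either control library. In knockdown 1 and 2 there were 177 and 37 such genes in footprints and 5 and 7 in mRNA. Whether genes were kept for their signal in the control, and the part of this in the medians, was not tested. The members took up 1.63% and 1.44% of the summed footprint signal in knockdown 1 and 2, against 1.39% in the control. That sum was 9.39e+05 and 1.04e+06 in the knockdown libraries, against 1.23e+06 in the control. Its 10 highest genes held 25.6% and 37.3% of it in the knockdown libraries, against 36.1% in the control. A share therefore also depends on these genes and need not follow the members' own signal. For mRNA the shares were 1.87% and 2.16% in the knockdown libraries, against 2.09% in the control. Of the colon epithelial markers 6 of 8 were in the table (EPCAM, KRT8, KRT18, KRT19, CDH1 and CDX2), with a summed mRNA signal of 5499 and 3403 in the knockdown libraries and 3920 in the control. Of the fibroblast markers 3 of 8 were present, at a summed mRNA signal of 7.13 and 6.35 in knockdown libraries and 7.50 in the control. Only CD68 of the 8 blood cell markers was present, with a footprint signal of 10162.5 and 9485 in knockdown 1 and 2 and 15089.6 in the control, and an mRNA signal of 4.98 and 19.9 in the knockdown libraries and 19.9 in the control. The summed footprint signal was 3149 and 1808 in the knockdown libraries and 2339 in the control for the epithelial markers, and 16.96 and 9.08 in the knockdown libraries and 13.6 in the control for the fibroblast markers. The part of these differences in the results below was not tested.

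In the deposited signal the subunits of the core proteasome were far from even in both assays, and their order hardly differed between libraries. Values are the deposited signal per gene, whose unit the header does not name. For 2326 genes the log2 ratio of the mRNA signal to the input FPKM of the RIP list, which is per length, was taken. Its slope on the log2 position of a gene's last m6A window was 0.23. A slope of 1 would mean a signal that was not per length, if that position tracked length exactly. The position is only a stand-in for length and footprints were not checked, so the check does not settle the unit. Levels of different genes are therefore given as an approximate order. Evenness is given as the SD of log2(signal + 1) across subunits within a library. For the 25 core subunits it was 1.24 and 1.11 in footprints of knockdown 1 and 2 and 1.02 in the control, a mean of 1.12 ± 0.11 (SD, n = 3 libraries). In mRNA it was 1.04 and 1.01 in the knockdown libraries and 0.992 in the control, a mean of 1.01 ± 0.026 (SD, n = 3). All tested genes had an SD of 2.26 in footprints and 1.89 in mRNA, so subunits of the proteasome differed less among themselves than genes in general. The median control mRNA signal was 122 for core subunits and 12.03 for all tested genes, and genes of like level were not compared.

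Over all measured subunits, the 20S core and the 19S cap differed in which assay was the more even. Among the 9 subunits of the 20S particle the mean SD was 0.860 in footprints and 1.09 in mRNA. The mRNA value includes PSMA7, at 867 in the control against 279 for PSMB3, the next highest 20S subunit. The spread without PSMA7 was not computed, so the order of the assays in the 20S particle may rest on that gene. Among the 16 subunits of the 19S particle it was 0.894 in footprints and 0.799 in mRNA. PSMB3, a structural β subunit, had the highest footprint signal of the core in every library, at 1297 and 1322 in knockdown 1 and 2 and 1124 in the control. PSMD3, a scaffold subunit of the cap's lid, had the lowest, at 70.1 and 57.5 in the knockdown libraries and 97.0 in the control. The ratio between them was 18.5 and 23.0 in knockdown libraries and 11.6 in the control. In mRNA the order was another one: PSMA7, an α subunit, was highest at 817 and 877 in the knockdown libraries and 867 in the control. The lowest was PSMD6, a lid subunit, at 33.6 and 39.8 in the knockdown libraries, and PSMC6, an ATPase, at 36.9 in the control.

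**Figure D1:**
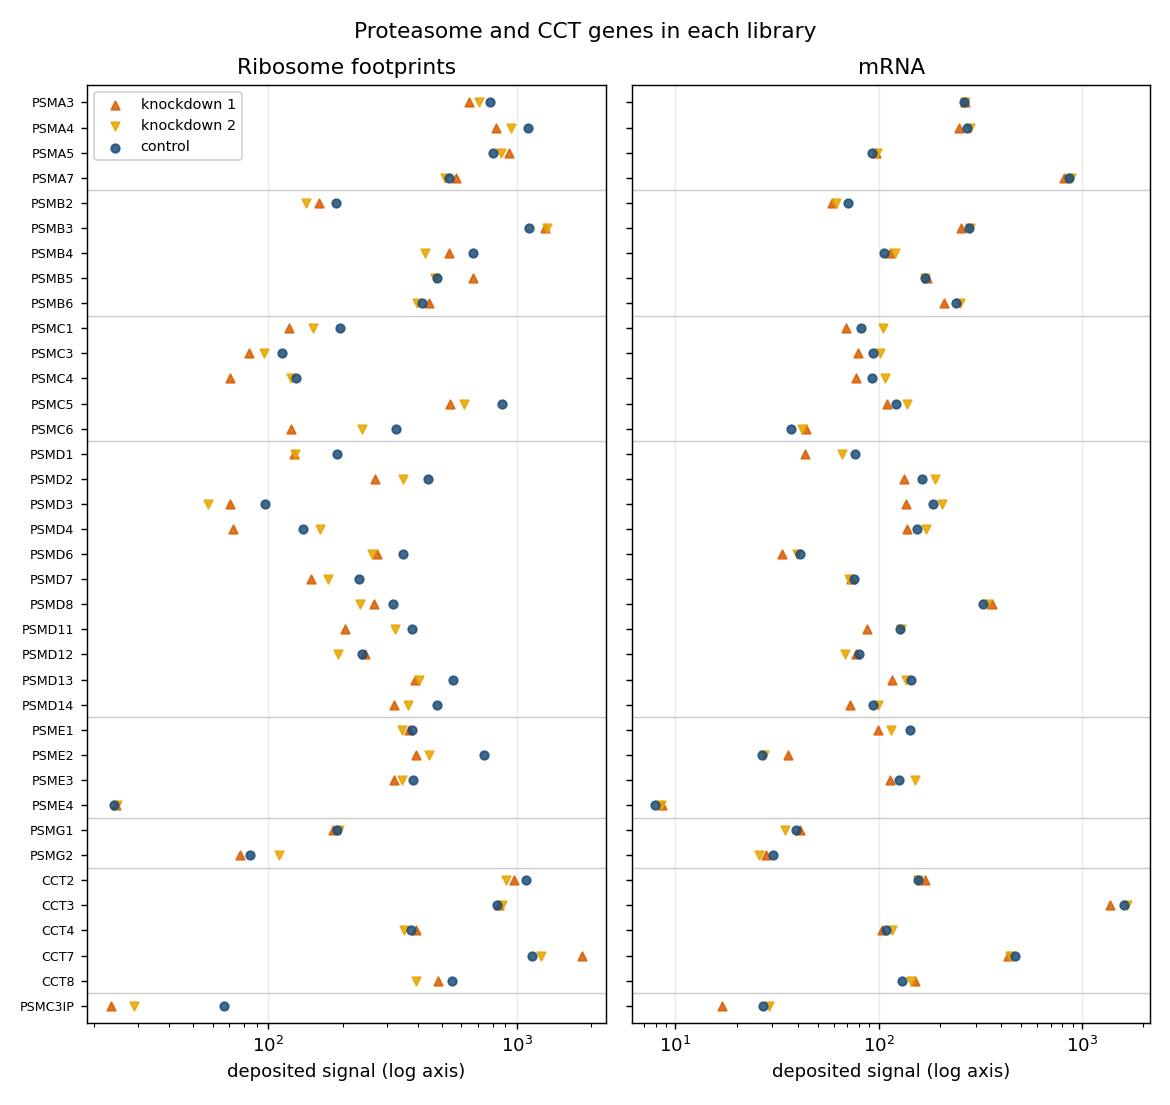
Deposited signal (log axis) of each of the 37 genes in ribosome footprints (left) and mRNA (right), 1 point per library for knockdown 1, knockdown 2 and the control, grouped by subcomplex. Points of 1 gene mostly lie close together while genes of 1 complex spread widely, and the control lies to the right of both knockdown points for most PSMC and PSMD genes in footprints but not in mRNA.

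Across core subunits footprints and mRNA had a lower correlation than across all tested genes, over a narrower range of levels. Across the 25 core subunits the Pearson correlation of log2 footprints with log2 mRNA was 0.51 and 0.41 in knockdown 1 and 2 and 0.37 in the control, against 0.77 across all tested genes in the control. These points share a library pair and are a description. A narrower range of levels lowers a correlation, so the core and all tested genes are not compared on like terms. The SD of the log2 footprint to mRNA ratio, as a mean over the libraries, was 1.14 across core subunits. Across all tested genes it was 1.40, so by this measure the core subunits differed less. By comparison, footprints of the knockdown libraries followed those of the control across the same subunits with a correlation of 0.95 and 0.98. The order of the subunits was thus nearly the same in knockdown and control libraries.

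The footprint to mRNA ratio, which sets each gene against itself, varied 18.6-fold and 31.3-fold across core subunits in knockdown 1 and 2, and 16.8-fold in the control. PSMA5, an α subunit, had ratios of 9.58 and 8.81 in the knockdown libraries and 8.61 in the control. PSMD6 had 8.19 and 6.56 in the knockdown libraries and 8.54 in the control. At the other end PSMA7 had 0.700 and 0.588 in the knockdown libraries and 0.619 in the control. PSMD3 had 0.514 and 0.282 in the knockdown libraries and 0.526 in the control, the lowest of the core subunits in each. The median gene tested had a ratio of 2.01 and 1.73 in the knockdown libraries and 2.32 in the control, so PSMA7 and PSMD3 lay well below it and PSMA5 and PSMD6 well above it in all 3 libraries. PSMA5 and PSMA7 sit in the same ring and are needed in equal number.

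CCT subunits were more even in footprints than in mRNA. Their mean SD was 0.790 ± 0.096 in footprints and 1.58 ± 0.070 in mRNA (SD, n = 3 libraries each). The footprint signal of CCT7 was highest, at 1838 and 1257 in knockdown 1 and 2 and 1153 in the control. That of CCT4 was lowest, at 395 and 353 in the knockdown libraries and 374 in the control, so the range was 4.66-fold and 3.56-fold in the knockdown libraries and 3.08-fold in the control. In mRNA the range was 13.2-fold and 14.3-fold in the knockdown libraries and 14.8-fold in the control.

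CCT3 set the top of the chaperonin's mRNA range. CCT3 mRNA was 1376 and 1660 in knockdown 1 and 2 and 1609 in the control, which was 3.18, 3.74 and 3.43 times the next highest subunit in the same libraries. CCT3 footprints, at 849 and 871 in the knockdown libraries and 837 in the control, lay among those of the other subunits. Its footprint to mRNA ratio was 0.617 and 0.524 in the knockdown libraries and 0.520 in the control, while CCT2 had 5.77 and 5.85 in the knockdown libraries and 6.93 in the control. Without CCT3 the mRNA range of the remaining CCT subunits was 4.15-fold and 3.83-fold in the knockdown libraries and 4.32-fold in the control, close to that of the footprints. In RefSeq, CCT3 overlaps the protein-coding gene TSACC and has 1 named pseudogene copy, and how reads of such copies were assigned was not tested.

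**Figure D2:**
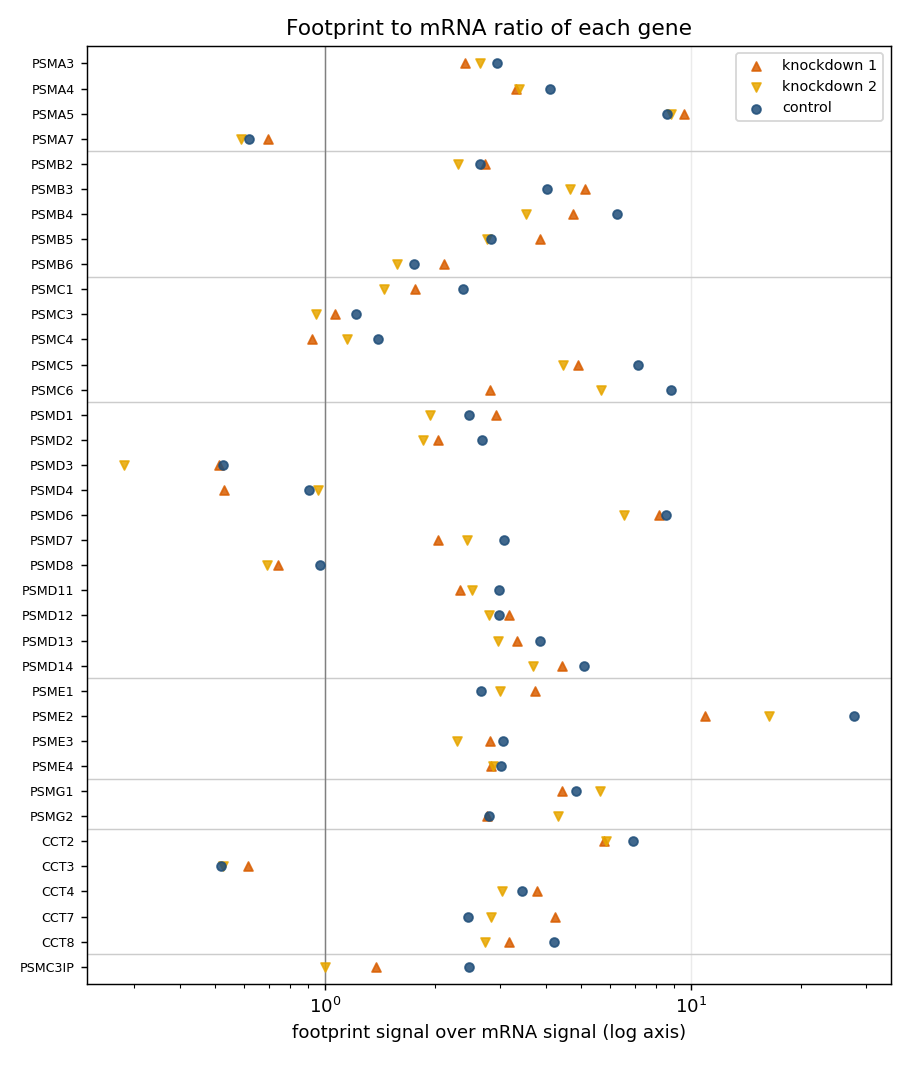
Footprint signal divided by mRNA signal (log axis) for each of the 37 genes, 1 point per library for knockdown 1, knockdown 2 and the control. PSME2 lies farthest right, at 10.9 in knockdown 1, 16.4 in knockdown 2 and 27.8 in the control, and PSMD3, CCT3, PSMA7, PSMD4 and PSMD8 lie at the left with every point below 1.

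After YTHDF1 knockdown no member passed the test, and most subunits of the 19S cap had lower footprint values in both knockdown libraries than in the control. In footprints 24 of the 37 members were below the control in both knockdown libraries and 5 were above it in both, against 51.2% and 17.5% of all tested genes. With limma and Benjamini-Hochberg adjustment at 0.05 over all tested genes, 0 members were called, against 0.0295% of genes. At an unadjusted p under 0.05 there were 2 members, PSMC3IP and PSME2, against 8.85% of genes, and both were lower, against 6.99% of genes. The members' median log2 change was -0.28 in knockdown 1 and -0.24 in knockdown 2, against -0.19 and -0.34 over all genes. As 1 list, the members' medians lay near those of all genes. In bulk libraries fewer cells expressing a gene and less RNA per cell cannot be told apart.

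Within the list the medians of the subcomplexes differed. Of the 16 subunits of the 19S particle 14 were below the control in footprints of both knockdown libraries, against 51.2% of all tested genes. None was above it in both, against 17.5%. Their median log2 footprint change was -0.60 in knockdown 1 and -0.39 in knockdown 2, against 0.09 and -0.08 for the 9 subunits of the 20S particle. The median of the 19S subunits was lower than that of the 20S subunits by 0.69 in knockdown 1 and by 0.31 in knockdown 2 on the log2 scale. In mRNA the same difference was -0.17 in knockdown 1 and 0.08 in knockdown 2, without a common direction. The mRNA median of the 19S subunits was -0.25 in knockdown 1 and 0.10 in knockdown 2, against -0.04 and 0.02 over all genes. Of the 16 subunits 14 were below the control in mRNA of knockdown 1 and 5 in knockdown 2. Of all 6782 tested genes 3598 and 3119 were. The split was noticed in these data, so it is a description and carries no test. Set against the median of all genes, 15 of the 16 cap subunits lay below it in knockdown 1 and 10 of 16 in knockdown 2, so in knockdown 2 the cap was near the bulk of genes and the 20S core above it.

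All 5 measured subunits of the cap's ATPase ring had lower footprint values in both knockdown libraries than in the control, against 51.2% of all tested genes. Set against the median change of all genes, 5 of 5 lay below it in knockdown 1 and 3 of 5 in knockdown 2. PSMC6 had a footprint signal of 124 and 238 in knockdown 1 and 2, against 326 in the control, while its mRNA was 44.0 and 42.0 in the knockdown libraries, against 36.9 in the control. Both footprint values were below the control and both mRNA values above it. The log2 footprint change was -0.92 (SE 0.44, limma adjusted p = 0.575) and the change of footprints relative to mRNA, translational efficiency, was -1.13 (SE 0.62, unadjusted p = 0.113 in limma). RefSeq names 3 pseudogenes of PSMC6.

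PSMC5 had 539 and 614 in footprints of the knockdown libraries, against 872 in the control, with mRNA of 109.9 and 137 in the knockdown libraries on either side of the control's 122. Its log2 footprint change was -0.60 (SE 0.30, limma adjusted p = 0.577). PSMC1 had 122 and 152 in the knockdown libraries, against 195 in the control, PSMC3 84.1 and 96.1, against 114, and PSMC4 70.6 and 124, against 129. All 5 ATPases were thus below the control in both libraries, with knockdown 1 the lower each time. The mRNA of PSMC1, PSMC3, PSMC4 and PSMC5 was below the control in knockdown 1 and above it in knockdown 2.

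Among non-ATPase subunits of the cap 9 of 11 were below the control in footprints of both knockdown libraries, against 51.2% of all tested genes. PSMD1, a scaffold of the base, had footprints of 127 and 128 in the knockdown libraries, against 189 in the control, and mRNA of 43.3 and 66.1 in the knockdown libraries, against 76.8 in the control. It was lower in both assays, with a log2 change of -0.57 in footprints and -0.51 in mRNA, so its translational efficiency differed by -0.06 (SE 0.51). PSMD2, the other base scaffold, had 270.3 and 350.0 in footprints of the knockdown libraries, against 438 in the control. PSMD14, the deubiquitinase of the lid, had 320.2 and 367 in the knockdown libraries, against 477 in the control. PSMD3 had 70.1 and 57.5 in the knockdown libraries, against 97.0 in the control, a log2 change of -0.60 (SE 0.37, limma adjusted p = 0.611).

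PSMD7, a lid subunit that pairs with PSMD14, had footprints of 149 and 175 in the knockdown libraries, against 232 in the control. PSMD8, also of the lid, had footprints of 268 and 235 in the knockdown libraries, against 317 in the control, while its mRNA was 361 and 339 in the knockdown libraries, against 327 in the control. In both genes the footprints were below the control in both libraries, and the mRNA of PSMD8 was above it in both.

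The 2 non-ATPase subunits that were not below the control in both libraries were PSMD4 and PSMD12. PSMD4, a ubiquitin receptor, had footprints of 72.5 in knockdown 1 and 162 in knockdown 2, against 138 in the control. PSMD12, a lid subunit, had 245 in knockdown 1 and 191 in knockdown 2, against 240 in the control. In both genes the knockdown libraries lay on either side of the control. The mean log2 footprint changes of the 16 cap subunits ran between -0.92 and -0.14.

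**Figure D3:**
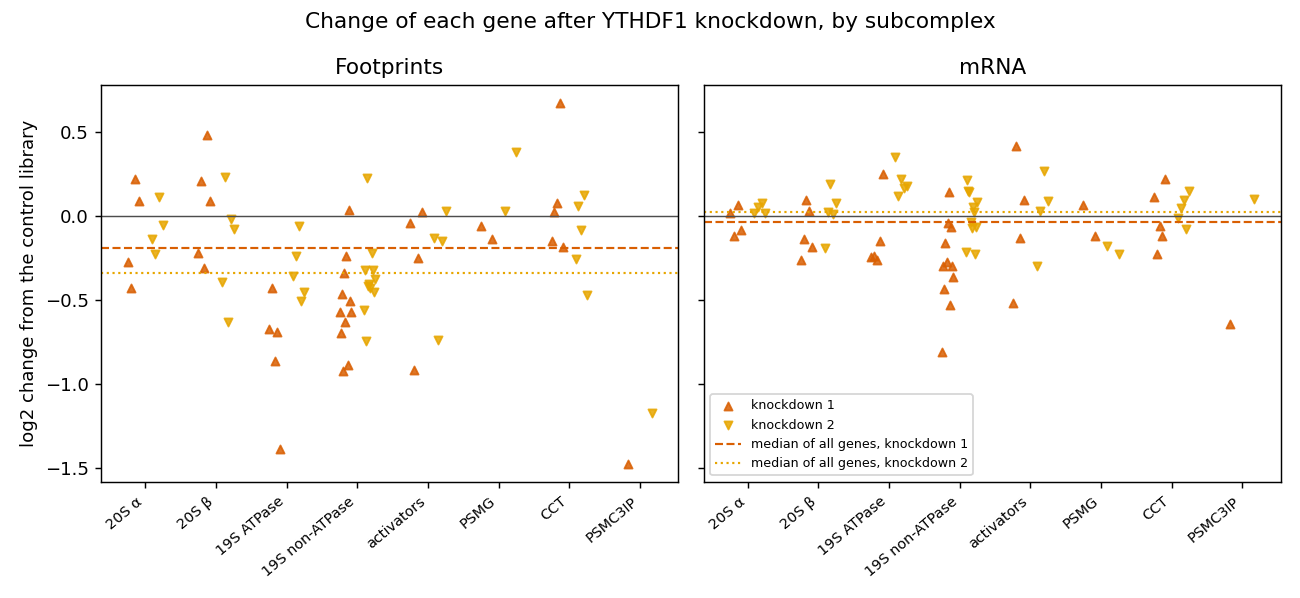
Log2 change from the control library, on the log2(signal + 1) scale, of each gene in knockdown 1 and knockdown 2, in footprints (left) and mRNA (right), by subcomplex. Dashed and dotted lines are the medians of all tested genes in knockdown 1 and knockdown 2. In footprints the 19S points lie mostly below 0 and the 20S and CCT points around it. In mRNA the 19S points lie mostly below 0 in knockdown 1 and mostly above it in knockdown 2. Most mRNA points of the other subcomplexes lie around 0.

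The measured catalytic subunits of the 20S core had knockdown libraries on either side of the control. PSMB5, the chymotrypsin-like site and the target of bortezomib, had footprints of 665 and 470.4 in knockdown 1 and 2, against 477 in the control. PSMB6, the caspase-like site, had 444 and 396 in the knockdown libraries, against 418 in the control. In both genes knockdown 1 was above the control and knockdown 2 below it. The mean log2 change of PSMB5 was 0.23 (SE 0.32, limma adjusted p = 0.811), the highest of the 9 measured 20S subunits and carried by knockdown 1, while that of PSMB6 was 0.0045. PSMB7, the trypsin-like site, was not analysed in footprints and mRNA. PSMB3 had 1297 and 1322 in the knockdown libraries, against 1124 in the control, a log2 change of 0.22 (SE 0.28, limma adjusted p = 0.788).

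PSMA5 had 932 and 866 in the knockdown libraries, against 801 in the control, a log2 change of 0.16 (SE 0.28). These were the only 20S subunits above the control in both libraries. PSMB4 was the lowest by change, with 536 and 428 in the knockdown libraries, against 665 in the control. Its mRNA was 113 and 121 in the knockdown libraries, against 106 in the control, and its translational efficiency differed by -0.61 (SE 0.42, unadjusted p = 0.194 in limma). PSMA3, PSMA4 and PSMB2 were also below the control in both libraries.

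CCT subunits had no common direction in footprints. CCT7 had 1838 in knockdown 1 and 1257 in knockdown 2, against 1153 in the control, the largest positive log2 change of the members at 0.40 (SE 0.33, limma adjusted p = 0.691). Most of it came from knockdown 1. CCT8 had 482 and 395 in the knockdown libraries, against 549 in the control, while its mRNA was 151 and 144 in the knockdown libraries, against 130 in the control. CCT2 had footprints of 977 and 909 in the knockdown libraries, against 1086 in the control. CCT3 and CCT4 were within 0.10 log2 units of the control in each knockdown library. The median of the 5 subunits was 0.02 in knockdown 1 and -0.09 in knockdown 2.

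Among activators PSME2 had the largest difference. With PSME1 it forms the interferon-inducible cap of the core. PSME2 footprints were 392 and 444 in knockdown 1 and 2, against 742 in the control, while its mRNA was 35.9 and 27.2 in the knockdown libraries, against 26.7 in the control. The log2 footprint change was -0.83 (SE 0.33, unadjusted p = 0.0407, adjusted p = 0.555 in limma) and that of translational efficiency was -1.05 (SE 0.46, unadjusted p = 0.0594). Its footprint to mRNA ratio was 10.9 and 16.4 in the knockdown libraries and 27.8 in the control, where it was above that of 99.3% of tested genes. RefSeq names 6 pseudogenes of PSME2, and how reads of these copies were assigned was not tested.

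In its partner PSME1 the mRNA values differed more than the footprints. PSME1 footprints were 369 and 346 in the knockdown libraries, against 380 in the control, and its mRNA was 98.7 and 115 in the knockdown libraries, against 142 in the control, a log2 mRNA change of -0.41 (unadjusted p = 0.204 in limma). PSME3, the nuclear activator, had footprints of 322 and 345 in the knockdown libraries, against 383 in the control. PSME4, a large single-chain activator, was the lowest member in both assays, with footprints of 24.4 and 24.6 in the knockdown libraries and 24.1 in the control. The assembly chaperones PSMG1 and PSMG2 had knockdown libraries on either side of the control in footprints. PSMC3IP, the recombination protein, had footprints of 23.3 and 28.9 in the knockdown libraries, against 66.6 in the control, the largest change of the members at -1.33 (SE 0.45, unadjusted p = 0.023, adjusted p = 0.552 in limma).

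In mRNA 9 members were below the control in both knockdown libraries and 9 above it, against 29.9% and 30.9% of all tested genes. With limma 0 members were called after adjustment, against 0.00% of genes, and 0 had an unadjusted p under 0.05, against 0.472%. The smallest unadjusted p was 0.203, for PSMD1. In translational efficiency 22 members were below the control in both and 5 above it, against 52.0% and 18.7% of genes. Here too 0 members were called, against 0.00% of genes, and 0 had an unadjusted p under 0.05, against 2.73% of genes in either direction and 2.14% lower. The median log2 change of translational efficiency was -0.39 for the 19S particle, 0.05 for the 20S particle and -0.02 for CCT, against -0.27 over all genes. By library the 19S median was -0.37 in knockdown 1 and -0.38 in knockdown 2, against -0.18 and -0.36 over all genes.

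Genes that work with these complexes were also counted. Of 24 listed proteasome partners 12 were in the table, and limma called 0 in footprints, mRNA or translational efficiency. UBQLN4, a shuttle that brings ubiquitinated proteins to the proteasome, had footprints of 1.97 and 3.65 in knockdown 1 and 2, against 13.7 in the control (limma adjusted p = 0.552). NGLY1, the glycanase that activates NFE2L1, had 11.3 and 14.3 in the knockdown libraries, against 30.3 in the control. NFE2L1 itself had 226 and 203 in the knockdown libraries, against 227 in the control. Of 12 chaperonin partners, prefoldin subunits among them, 7 were in the table and 0 were called.

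Of 9 listed CCT clients 6 were in the table, all tubulins or actins. All 6 were below the control in footprints of both knockdown libraries, against 51.2% of all tested genes, again with 0 called. Their median log2 footprint change was -0.71, against -0.28 over all genes. Their median mRNA change was -0.31, against -0.0062 over all genes. In translational efficiency it was -0.44, against -0.27. TUBA1B, an α-tubulin, had footprints of 196 and 310.5 in the knockdown libraries, against 647 in the control, and mRNA of 681 and 1164 in the knockdown libraries, against 1279 in the control. ACTG1, a cytoplasmic actin, had footprints of 3428 and 2487 in the knockdown libraries, against 4045 in the control. Its mRNA was 7100 and 8708 in the knockdown libraries, against 9175 in the control. Tubulins and actins have many close copies, and how shared reads were assigned was not tested.

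In the YTHDF1 RIP list, which holds genes with an immunoprecipitate to input ratio of at least 1.501, 2 of the 37 members were present (5.41%), against 35.6% of tested genes. PSMD2 had 463 FPKM in the YTHDF1 RIP and 174 FPKM in the input, a deposited ratio of 2.67, rank 1367 of 3938. PSME4 had 10.2 FPKM in the RIP and 2.70 FPKM in the input, a ratio of 3.77, rank 517. The members were more abundant than most genes, with a median control mRNA signal of 122 against 12.03 for all tested genes. Among the 432 tested genes between the members' lower and upper quartiles of mRNA signal, 102 were in the list (23.6%), against 1 of the 19 members in that range. The RIP and its input had 1 library each, so the listing has no replicate check.

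In m6A-seq 24 of the 37 members (64.9%) had a listed peak in both replicates, against 72.5% of tested genes. The 3 genes PSMB3, PSMB4 and PSMD12 had a peak in 1 replicate, so 27 members had at least 1, against 83.3% of tested genes, and 10 members had none. The peaks were unequal across subcomplexes. All 5 CCT subunits and 10 of the 11 non-ATPase subunits of the cap had peaks in both replicates. Of the 5 ATPases only PSMC5 and PSMC6 did, and of the 9 subunits of the 20S particle only PSMA7, PSMB2 and PSMB6 did. PSME3 and PSME4 had peaks and the interferon-inducible pair PSME1 and PSME2 had none. These lists give peaks over a ratio of 3 only, so a gene with none may still be methylated.

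Listed peaks whose windows overlapped between the replicates mostly had summits close together. Each replicate held 56 peaks in members, and 48 pairs of windows in 24 genes overlapped. Of these pairs 38 had the same motif position and 36 had summits within 10 bases. The median summit distance was 2 bases and the largest 119. Peaks without an overlapping window are left out, so nearness is partly set by that choice. The same values for the peaks of all genes are not given here. Both lists carry the same input signal in all 5972 windows that they share, so the replicates are not independent in their input. Positions are counted along a transcript that the lists do not name, and the ratios are the authors' own. Each peak carries a motif of 5 letters whose 4 first letters were GGAC in 21.4% and 30.4% of the members' peaks, against 30.7% and 29.5% of all peaks in replicate 1 and 2.

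PSMD13, a lid subunit, held the highest ratio of the members. Its window at transcript positions 1450 to 1550 in replicate 1 had a ratio of 54.1 with motif GGACA at position 1533, and the overlapping window in replicate 2 had a ratio of 44.7 with the same motif position. The input signal there was 5.88 and 3.65, low values that enter the ratio as its denominator. PSMD11, another lid subunit, had ratios of 15.8 and 15.7 at motif GGACC, position 1396, over an input signal of 147 in both. CCT4 had 5 peaks in replicate 1 and 4 in replicate 2, the strongest with ratios of 12.6 and 13.8 at motif AGACA, position 278. CCT8 had ratios of 9.81 and 8.15 and CCT2 of 8.78 and 9.32 at their strongest shared windows. PSME4 had the most peaks, 7 in replicate 1 and 9 in replicate 2.

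**Figure D4:**
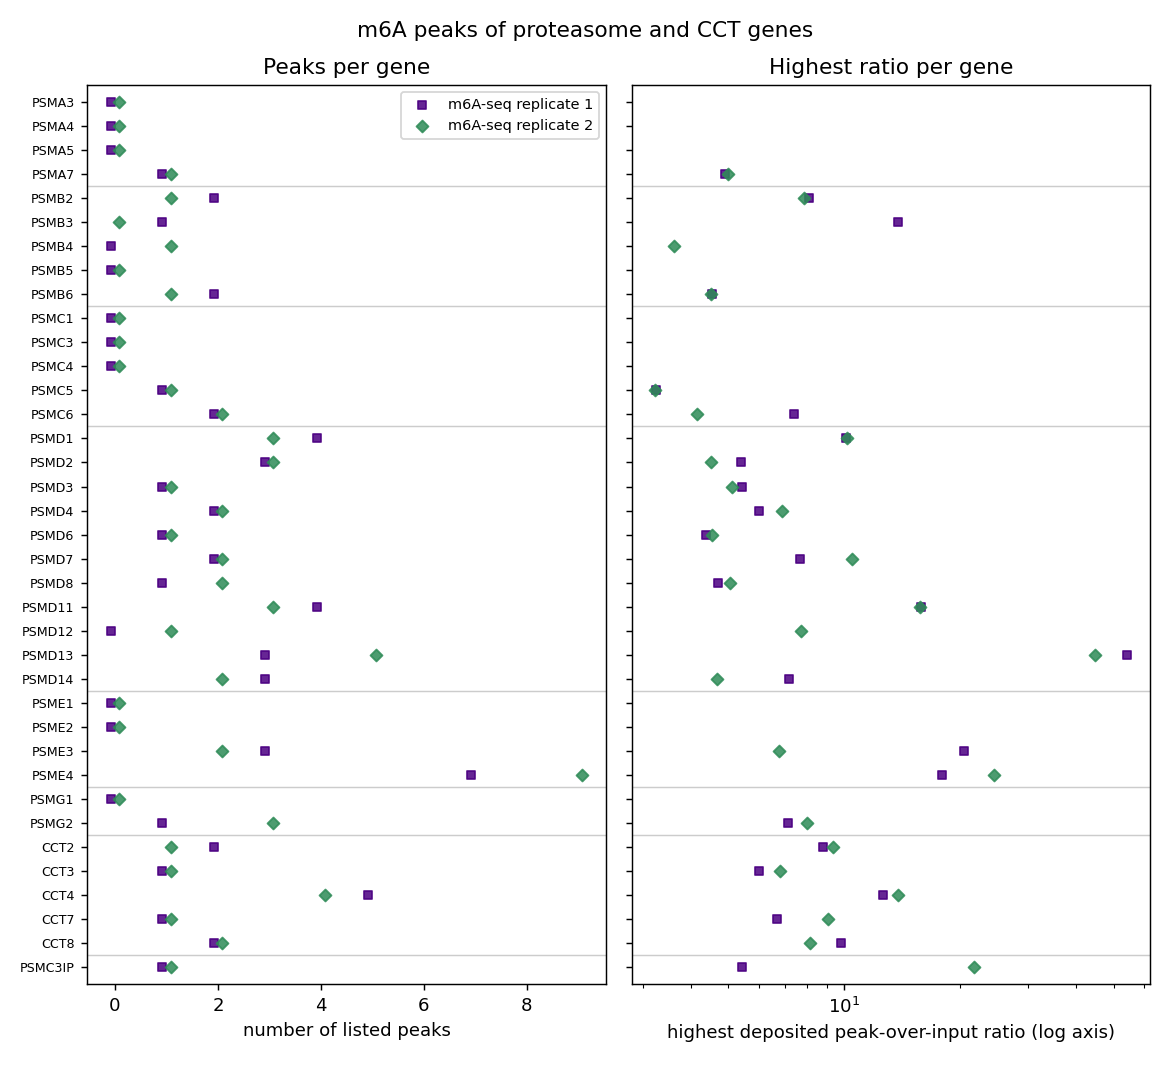
Number of listed m6A peaks (left) and highest deposited ratio of peak over input (right, log axis) for each of the 37 genes in replicate 1 and replicate 2 of m6A-seq in control cells. CCT and PSMD genes have peaks in both replicates with few exceptions, PSMD13 has the highest ratios at 54.1 and 44.7, and genes with no listed peak have no point in the right panel.

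The 24 members with peaks in both replicates had a median log2 footprint change of -0.34 and the 10 without peaks -0.27, against -0.29 and -0.24 for tested genes with and without peaks. PSME2, with the largest footprint difference among subunits of activators, had no listed peak and was not in the RIP list. PSMC6 had 2 peaks in each replicate, with ratios of 7.39 and 3.26 at motif GGACT, position 77, and was not in the RIP list. PSMD2 alone among core subunits had both a RIP listing and peaks in both replicates, with footprints of 270.3 and 350.0 in the knockdown libraries, against 438 in the control.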

How the data were processed

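Ribosome profiling, mRNA-seq, YTHDF1 RIP and m6A-seq of HCT116 cells were grouped by the sample labels. Per the submitters' processing notes, STAR and GRCh38 were used, with versions and the peak caller not given in the sources used here. A deposited expression table holds a signal per gene with no unit named in its header, which leaves the depth unknown and allows no count model. The deposited RIP list holds FPKM and their ratio. The deposited m6A lists hold, per the file headers, signal in immunoprecipitate and input and a ratio of peak over input, called per replicate.

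Of 6926 rows, 12 with names damaged by a spreadsheet were dropped, and 132 genes with a mean log2(signal + 1) under 1 were not tested. A limma-trend model (limma 3.58.1, R 4.3.3) on log2(signal + 1), with 1 mean per assay and condition and 2 residual degrees of freedom, gave 2-sided tests of footprints, mRNA and their interaction (translational efficiency), adjusted by Benjamini-Hochberg over 6782 genes. With 1 control library per assay, its spread is taken to equal that within the knockdown pairs. The scale understates changes of low genes. The fit was tested on simulated data. Member summaries used Python 3.11.15 with pandas 2.3.3.

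Members and gene lists were chosen with earlier results of these data known. Named are YTHDF1, for each contrast the up to 5 largest changes in each direction whose knockdown libraries fall together on 1 side of the control, the 3 highest and 3 lowest members by level and ratio, catalytic and CCT subunits, RIP-listed members, members with m6A peaks in both replicates and the 3 largest changes of related lists; others were added after their values were seen. Pseudogenes, overlaps and promoters came from RefSeq GRCh38.p14. Alternatives were other pseudocounts, scalings and filters, each assay alone, a replicate block and each knockdown library left out.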

Additional observations from a re-analysis of the deposited data

How the results depend on the processing

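No member was called in footprints, mRNA or translational efficiency under any alternative run, and the lowest limma adjusted p of a named member was 0.108. Scaling moved the medians, since the median of all genes in footprints was -0.28 as deposited, and 0.0090 with median centring. With median centring and with quantile normalisation the median log2 footprint change became -0.090 and -0.16 for the core proteasome (-0.38 as deposited), -0.20 and -0.28 for the 19S particle (-0.49), 0.29 and 0.20 for the 20S particle (0.00), and 0.28 and 0.18 for CCT (-0.00). The median change of translational efficiency became -0.016 and -0.13 for the core proteasome (-0.30 as deposited) and -0.11 and -0.20 for the 19S particle (-0.39), and with median centring 0.33 for the 20S particle (0.05) and 0.26 for CCT (-0.02). The 19S median stayed below the 20S median under both scalings. The deposited footprint medians of the 20S particle and of CCT were both near 0, at 0.0045 and -0.0043. Both were above 0 under either scaling, so neither sign as deposited is firm. The cause was not tested.

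Leaving out each knockdown library in turn gave a range of -0.41 to -0.17 for translational efficiency of the core proteasome, -0.53 to -0.18 for that of the 19S particle and -0.63 to -0.22 for the 19S minus 20S difference in it. The same range was -0.085 to 0.022 for CCT footprints and -0.059 to 0.045 for CCT mRNA. For 20S footprints the median was -0.078 without knockdown 1 and 0.086 without knockdown 2 of footprints. The CCT3 change in translational efficiency reversed to -0.0058 without knockdown 1 of mRNA. In footprints 2 members had an unadjusted p under 0.05 in limma as deposited, against 600 of all 6782 tested genes. With median centring and with quantile normalisation 0 members did, against 500 and 532 genes. The 19S and 20S split was added after seeing the data.

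Without the highest and lowest subunit the mean SD across core subunits was 0.999 in footprints, 0.804 in mRNA and 0.986 in the ratio. For CCT it was 0.570 in footprints, 0.909 in mRNA and 0.227 in the ratio. A pseudocount of 5 gave 0.983 for core mRNA and 1.12 for the core ratio. With a RIP ratio of at least 3, 1 of the 37 members was listed, against 9.10% of tested genes. Dividing by protein length was not run. The knockdown numbers are not stated to pair libraries; the difference of knockdown 1 minus 2 correlated at 0.37 between assays across genes. A replicate block with the knockdown number shared by both assays called 0 members in each of the 3 contrasts. Depth is unknown, and 1 control library per assay limits every comparison.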

Other observations

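Genes of these families outside the expression table can still be read in the m6A lists. Listed peaks were found for 11 of them, and 10 had peaks in both replicates. Family genes without a listed peak are not in this count. Of the 6782 tested genes 5647 had a peak in at least 1 replicate and 4918 in both. TCP1, the CCT subunit that gave the complex its name, had 4 peaks in replicate 1 and 3 in replicate 2, the strongest with deposited ratios of 8.34 and 7.78. CCT6A had 2 peaks in each replicate, with highest ratios of 12.5 and 11.8. PSMA1, an α subunit of the 20S core, had 2 peaks in each, with highest ratios of 8.36 and 20.6. PSMC2, the ATPase missing from the expression comparison, had 1 peak in each, with ratios of 3.02 and 4.13. The immunoproteasome subunit PSMB9 had 2 peaks in each replicate, with highest ratios of 7.92 and 16.8. PSMB7, the trypsin-like site, had 2 peaks in replicate 1 and 3 in replicate 2, with highest ratios of 4.01 and 3.67.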
